A study of Mus musculus with 6 samples.

Results

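Immunoglobulin constant region genes and plasma cell genes were followed in RNA of mouse bone marrow neutrophils: Igkc, Igha, Ighg1, Iglc1, Iglc2, Jchain, Mzb1 and Xbp1, 8 of the 51789 gene rows of the table. They were selected on the measured difference between the KO-labelled and WT-labelled groups in these same 6 libraries, so their values are a description and carry no test. The study, titled as one of syntaphilin in neutrophil migration in cancer, has 6 samples in 2 groups of 3, WT (control) and KO for Snph, the gene of the mitochondrial anchor syntaphilin. The cells of both groups were isolated from bone marrow with beads against Ly6G, to a stated purity above 95%, and their polyadenylated RNA was sequenced from QuantSeq libraries, which count tags from the 3′ end of transcripts. The labels give no age, sex, strain, pooling or knockout allele, and name no cancer model or treatment. Whether each sample is a different animal is not stated, so the spread between libraries of a group may be technical.

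Plasma cells are the antibody-secreting end stage of the B cell lineage and many persist in bone marrow. Each antibody pairs heavy chains, whose constant region sets the class (Ighm for IgM, Ighg genes for IgG, Igha for IgA), with light chains of kappa type (Igkc) or lambda type (Iglc genes). Naive B cells carry IgM and IgD; after class switching a cell makes IgG or IgA in their place. Rearranged immunoglobulin genes belong to cells of the B lineage.

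Total counts ran from 7018388 to 9664381, so 1 count was worth 0.103 to 0.142 CPM, the count scaled to the size of its library, with TMM factors for all gene levels below. Snph itself had 0 counts in each WT-labelled library, which allows up to 3 counts in each, and 5, 2 and 8 counts in KO 1, 2 and 3. These counts go against the labels, although the part of the gene that was deleted is not given and a 3′ tag outside it would check nothing. The groups are therefore called WT-labelled and KO-labelled, and every direction below rests on the labels. The 16 neutrophil marker genes summed to 2.87e+05 to 3.08e+05 CPM in the WT-labelled libraries and 3.28e+05 to 3.49e+05 in the KO-labelled ones. Over all genes, edgeR's quasi-likelihood test with Benjamini-Hochberg adjustment at 0.05 called 107 of 10397 tested genes, 25 higher and 82 lower in the KO-labelled group.

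All 8 genes passed the filter on low counts. Igkc, Igha, Ighg1 and Jchain were called higher, 4 of 8, where 0.240% of all tested genes were. None of the 8 was called lower, against 0.789% of tested genes. The same 4 genes had groups that did not overlap, every KO-labelled library being above every WT-labelled one, as did 7.48% of tested genes. None of the 8 was lower without overlap, against 9.32%. Nothing is read from these shares, because the contrast chose the genes.

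**Figure D1:**
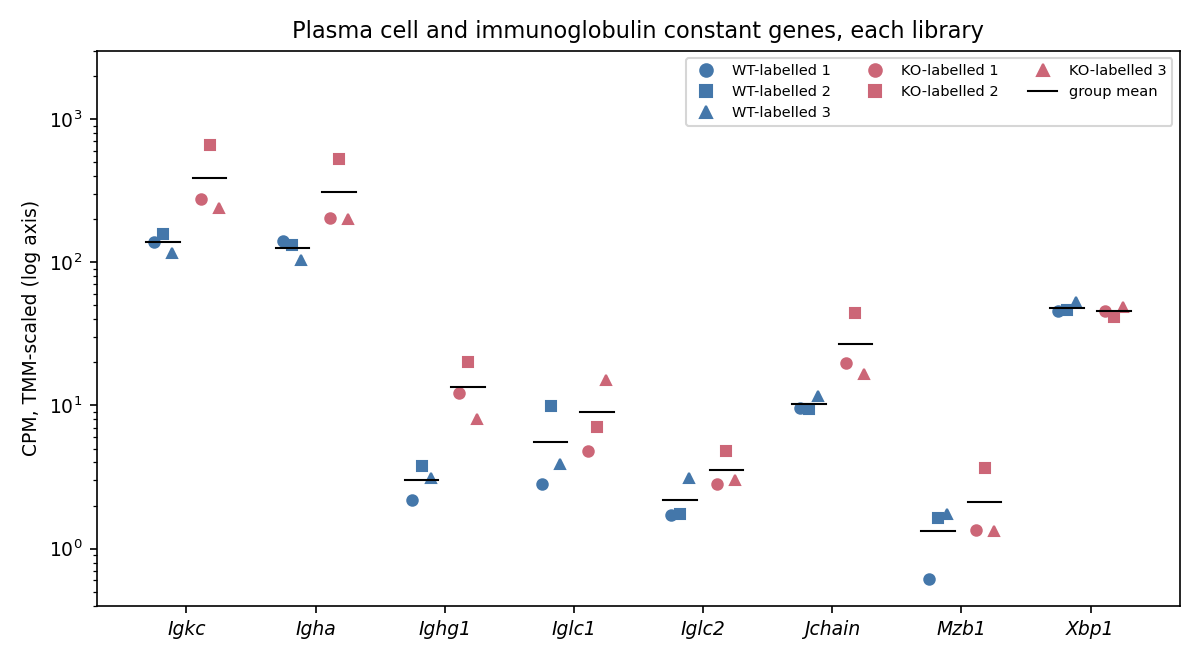
CPM (log axis, scaled by TMM factors) of each of the 8 genes in each library; blue marks WT-labelled, red KO-labelled libraries, the symbol gives the library number and the bar the group mean. Igkc, Igha, Ighg1 and Jchain lie higher in all 3 KO-labelled libraries, KO 2 being the highest, while Iglc1, Iglc2, Mzb1 and Xbp1 overlap between the groups.

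Igha (ENSMUSG00000095079; GRCm38 chr12:113254830-113260236, minus strand) encodes the constant region of the IgA heavy chain and was the most abundant heavy chain gene. Its CPM was 141.9, 131.2 and 103.4 in WT 1, 2 and 3 against 202.7, 522.5 and 200.1 in KO 1, 2 and 3. The WT-labelled libraries lay close together and below every KO-labelled one, and KO 2 was 2.59 times the mean of KO 1 and KO 3. The group means were 125.5 ± 19.9 and 308.5 ± 185.4 CPM (SD, n = 3 each), a 2.46-fold difference, with a fitted log2 fold change of 1.29 (SE 0.275). Without KO 2 the log2 fold change was 0.68 (SE 0.12). The edgeR call was lost when any 1 of WT 1, WT 2 and WT 3 was left out, and DESeq2 and limma-voom made no call.

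Ighg1 (ENSMUSG00000076614; chr12:113325240-113330523, minus strand) encodes the constant region of IgG1 and was far less abundant. It had 18, 37 and 23 counts in WT 1, 2 and 3 against 91, 138 and 72 in KO 1, 2 and 3, or 2.20, 3.77 and 3.09 CPM against 12.2, 20.2 and 8.01 CPM. The lowest KO-labelled library stood above the highest WT-labelled one. The means of 3.02 ± 0.787 and 13.5 ± 6.21 CPM (SD, n = 3 each) differed 4.47-fold, the largest ratio among the 8 genes, with a log2 fold change of 2.13 (SE 0.33). Without KO 2 it was 1.72 (SE 0.30), and Ighg1 was the one gene of the 8 that was called in each of 14 alternative settings.

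The IgG genes are related enough that reads could be shared between them, so the last 90 coding bases of each, the coding stretch nearest to where a 3′ tag falls, are shown on the transcript strand, with capitals where a base differs from Ighg1 at the same position.
Ighg1: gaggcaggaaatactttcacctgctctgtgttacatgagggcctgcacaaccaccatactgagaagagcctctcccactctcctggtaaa
Ighg2b: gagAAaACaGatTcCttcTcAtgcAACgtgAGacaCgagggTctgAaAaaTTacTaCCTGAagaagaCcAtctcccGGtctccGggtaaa
Ighg2c: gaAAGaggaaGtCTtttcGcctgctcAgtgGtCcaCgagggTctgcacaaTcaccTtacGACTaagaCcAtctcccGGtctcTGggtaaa
Ighg3: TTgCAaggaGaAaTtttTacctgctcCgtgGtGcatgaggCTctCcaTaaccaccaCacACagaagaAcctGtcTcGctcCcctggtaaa
They lie on the minus strand of GRCm38 at chr12:113328979-113329068, chr12:113306392-113306481, chr12:113287392-113287481 and chr12:113359668-113359757, in the order printed. Ighg2b differed from Ighg1 at 31 positions, Ighg2c at 24 and Ighg3 at 23. Over the whole coding sequence Ighg1 was 74.7% identical to Ighg2b, 75.3% to Ighg2c and 74.1% to Ighg3. Its longest run shared with any of them was 37 bases over the whole transcript and 18 within the last 300 bases. Ighg2b and Ighg2c were closer, at 85.6%, with a shared run of 78 bases over the transcript and 44 within the last 300. Counts of those genes are therefore less certain than those of Ighg1.

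Relative to their means, the other IgG genes were spread more widely than Ighg1, except Ighg2c in the WT-labelled group. Ighg2b had 34, 106 and 54 counts in WT 1, 2 and 3 against 51, 166 and 67 in KO 1, 2 and 3, so its groups overlapped. Ighg2c had 21, 22 and 12 against 12, 66 and 10 counts, with KO 2 alone above the WT-labelled libraries. Ighg3 had 0, 11 and 12 against 10, 13 and 5 counts. The share of Ighg1 in all IgG counts was 24.7%, 21.0% and 22.8% in WT 1, 2 and 3 against 55.5%, 36.0% and 46.8% in KO 1, 2 and 3. Ighg1 was selected on the contrast, so its higher share follows in part from that choice and is no separate result. The exact 95% intervals of these shares, which cover counting error only, reached at most 36.1% in the WT-labelled libraries and at least 31.2% in the KO-labelled ones.

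Igkc (ENSMUSG00000076609; chr6:70726435-70726966, plus strand) encodes the constant region of the kappa light chain, the main light chain of the mouse, and was the most abundant of the 8 genes by mean CPM. Its CPM was 139.5, 157.4 and 116.1 in WT 1, 2 and 3 against 275.2, 656.7 and 237.5 in KO 1, 2 and 3. The groups did not overlap, and KO 2 was 2.56 times the mean of the other KO-labelled libraries. The means were 137.7 ± 20.7 and 389.8 ± 231.9 CPM (SD, n = 3 each), a 2.83-fold difference, with a log2 fold change of 1.498 (SE 0.274). Without KO 2 it was 0.89 (SE 0.12). The call was lost in edgeR when WT 1, WT 2 or WT 3 was left out, and in DESeq2 with all libraries.

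Iglc1 and Iglc2, constant genes of the lambda light chain, were low and overlapped between the groups. Iglc1 (ENSMUSG00000105906; chr16:19061618-19062071, minus strand) had 23, 98 and 29 counts in WT 1, 2 and 3 against 36, 48 and 135 in KO 1, 2 and 3. One library of each group was high, WT 2 at 9.99 CPM and KO 3 at 15.03 CPM, and KO 2, highest for Igkc, Igha and Ighg1, was not. The means of 5.57 ± 3.87 and 8.97 ± 5.36 CPM gave a log2 fold change of 0.68 (SE 0.435), which ran from 0.06 to 1.44 as each library in turn was left out. Iglc2 (ENSMUSG00000076937; chr16:19198396-19200351, minus strand) had 14, 17 and 23 against 21, 33 and 27 counts. Its means of 2.18 ± 0.790 and 3.56 ± 1.12 CPM gave 0.71 (SE 0.41), and neither gene was called.

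The last 90 coding bases of the lambda genes show how far they differ near the 3′ end. The untranslated stretch beyond them, 137 to 143 bases long, is not shown. Capitals mark bases that differ from Iglc2 at the same position.
Iglc1: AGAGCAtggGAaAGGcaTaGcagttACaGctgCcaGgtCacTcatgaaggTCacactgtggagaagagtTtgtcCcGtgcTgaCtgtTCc
Iglc2: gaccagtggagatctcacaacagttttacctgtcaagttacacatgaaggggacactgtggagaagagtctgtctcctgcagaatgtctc
Iglc3: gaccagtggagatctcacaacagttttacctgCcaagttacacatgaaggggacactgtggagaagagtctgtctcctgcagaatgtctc
The stretches lie on the minus strand of GRCm38 at chr16:19061755-19061844, chr16:19198539-19198628 and chr16:19065368-19065457, in the order printed. Iglc1 differed from Iglc2 at 29 positions, but Iglc3 at 1, and the full coding sequences of Iglc2 and Iglc3 were 96.2% identical. Over the last 300 bases, which take in the untranslated stretch, Iglc2 and Iglc3 were 92.5% identical. Their longest shared run was 79 bases over the transcript and 62 within the last 300 bases. The division of counts between Iglc2 and Iglc3 is therefore uncertain, while that of Iglc1 rests on more differing bases. Iglc3 had 13, 26 and 15 counts in WT 1, 2 and 3 against 3, 76 and 23 in KO 1, 2 and 3, with the lowest and the highest value both in the KO-labelled group.

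Jchain (ENSMUSG00000067149; chr5:88519809-88527891, minus strand) encodes the joining chain that links IgA and IgM into polymers. Its CPM was 9.67, 9.38 and 11.6 in WT 1, 2 and 3 against 19.8, 44.6 and 16.6 in KO 1, 2 and 3. As for Igkc and Igha, the groups did not overlap and KO 2 was highest, 2.45 times the mean of the others. The means were 10.2 ± 1.19 and 27.0 ± 15.3 CPM (SD, n = 3 each), a 2.645-fold difference, with a log2 fold change of 1.39 (SE 0.30). Without KO 2 it was 0.83 (SE 0.19), and the edgeR call was lost there, as it was without WT 1, WT 2 or WT 3 and in DESeq2 and limma-voom. Per 100 Igha counts there were 6.81, 7.15 and 11.2 Jchain counts in WT 1, 2 and 3 against 9.75, 8.53 and 8.29 in KO 1, 2 and 3, so the ratio overlapped between the groups.

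Mzb1 and Xbp1, which act in the making and secretion of antibody, had groups that overlapped. Mzb1 (ENSMUSG00000024353; chr18:35647267-35649367, minus strand), a chaperone partner of the endoplasmic reticulum in B and plasma cells, had 5, 16 and 13 counts in WT 1, 2 and 3 against 10, 25 and 12 in KO 1, 2 and 3. KO 2 alone was above every WT-labelled library. The means of 1.33 ± 0.625 and 2.12 ± 1.34 CPM gave a log2 fold change of 0.64 (SE 0.57), and without KO 2 it was 0.01 (SE 0.68). Its exons overlap those of Spata24 on the same strand, so reads of these genes may be shared.

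Xbp1 (ENSMUSG00000020484; chr11:5520659-5525893, plus strand) encodes a transcription factor of the unfolded protein response that plasma cells need for secretion and that many other cell types express. Its CPM was 45.8, 46.3 and 52.4 in WT 1, 2 and 3 against 45.6, 41.8 and 49.1 in KO 1, 2 and 3. The libraries lay within a narrow range, and KO 2, highest for Igkc, was the lowest. The means of 48.15 ± 3.71 and 45.5 ± 3.64 CPM (SD, n = 3 each) gave a log2 fold change of -0.08 (SE 0.11), between -0.18 and -0.01 over all alternatives. For each 100 Igkc counts there were 32.8, 29.4 and 45.1 Xbp1 counts in WT 1, 2 and 3 against 16.6, 6.37 and 20.7 in KO 1, 2 and 3. Igkc was selected on the contrast and Xbp1 itself differed little, so this ratio restates the difference in Igkc and is no separate result. Gene counts do not separate the spliced from the unspliced form of Xbp1, nor the secreted from the membrane form of a heavy chain.

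Summed over the heavy and light constant genes, antibody RNA made up 0.0394%, 0.0410% and 0.0354% of all counts in WT 1, 2 and 3 against 0.0553%, 0.127% and 0.0544% in KO 1, 2 and 3. All KO-labelled libraries exceeded all WT-labelled ones, and KO 2 held more than the others of its group. Igkc and Igha, selected on the contrast, are part of this sum. In CPM the means were 372.6 ± 35.45 and 823.4 ± 449.2 (SD, n = 3 each), a 2.21-fold difference. The log2 ratio of the means was 1.14, and 0.60 without KO 2. In bulk RNA, a larger number of cells of a type and more RNA per cell cannot be told apart.

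The make-up of heavy chain RNA by class also differed between the groups. Igha and Ighg1 were selected on the contrast, so these shares are a description and no separate result. Igha made up 60.4%, 56.6% and 49.5% of heavy chain constant counts in WT 1, 2 and 3 against 69.8%, 78.8% and 67.5% in KO 1, 2 and 3, and Ighm, of IgM, 34.5%, 35.1% and 43.5% against 21.6%, 12.3% and 25.6%. The IgA share was higher and the IgM share lower in every KO-labelled library than in any WT-labelled one. In CPM, IgA and IgG together went from 150.9, 149.1 and 116.9 to 224.8, 578.7 and 217.3, while IgM was 81.0, 81.3 and 90.7 in WT 1, 2 and 3 against 62.65, 81.7 and 75.9 in KO 1, 2 and 3. Ighm thus had overlapping groups, with means of 84.4 ± 5.53 and 73.4 ± 9.77 CPM and a log2 fold change of -0.20 (SE 0.10, edgeR adjusted p = 0.498). The IgG share of heavy chain counts overlapped between the groups, at 3.80% to 7.74% and 5.78% to 8.48%.

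**Figure D2:**
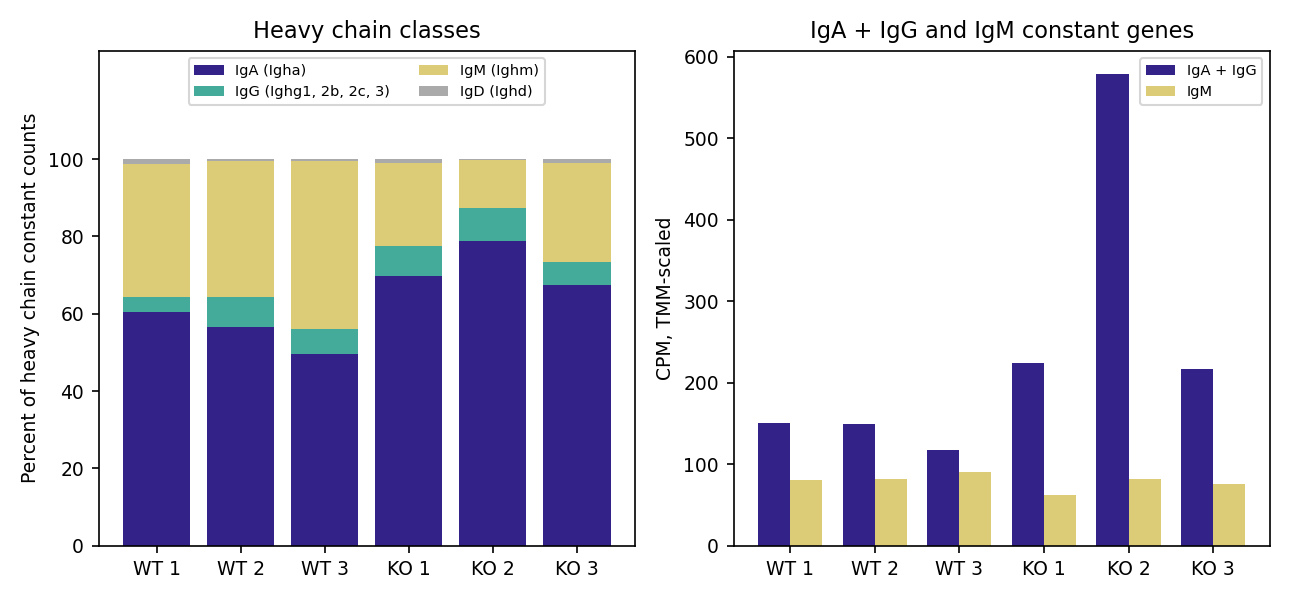
Left, the percent of heavy chain constant counts held by IgA, IgG, IgM and IgD genes in each library; right, CPM (TMM-scaled) of IgA plus IgG genes and of the IgM gene in each library. IgA takes 49.5% to 60.4% in the WT-labelled and 67.5% to 78.8% in the KO-labelled libraries, and IgA plus IgG reaches 578.7 CPM in KO 2 while IgM stays between 62.65 and 90.7 CPM throughout.

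Light chain counts per heavy chain count were 0.620, 0.741 and 0.5995 in WT 1, 2 and 3 against 0.975, 1.03 and 0.870 in KO 1, 2 and 3, without overlap. Igkc, Igha and Ighg1 were selected on the contrast, so this ratio is a description too. The Igha to Igkc ratio was 1.02, 0.834 and 0.890 against 0.737, 0.796 and 0.842, so the groups overlapped, and KO 2, whose levels stood apart, lay between KO 1 and KO 3 in this ratio. The lambda share of light chain counts was 4.202%, 8.37% and 7.20% against 2.85%, 3.39% and 7.98%, and the groups overlapped. Within lambda, Iglc1 took 46.0%, 69.5% and 43.3% in WT 1, 2 and 3 against 60.0%, 30.6% and 73.0% in KO 1, 2 and 3, a range within each group wider than the difference between their means.

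Of the remaining constant genes, none of the 6 that were tested was called by edgeR, by DESeq2 or by limma-voom, and none had an unadjusted p under 0.05. Without the filter on low counts edgeR called 1, Ighg2b, higher (adjusted p = 0.0423). Their median log2 fold change was 0.73, beside 0.01 over all tested genes, and 5 of 6 were above 0. Ighd, of IgD, had 24, 13 and 8 counts in WT 1, 2 and 3 against 22, 16 and 30 in KO 1, 2 and 3. Ighe, of IgE, and Iglc4 had 0 counts in every library, which allows an expected count of up to 3 in each. Variable, diversity and joining gene rows, which carry the antigen-binding part, held 30 counts in all over 10 of 382 rows, beside 27954 counts of constant genes; these segments lie toward the 5′ end of an antibody transcript, away from the counted tags. The most counted were Iglv1 with 9, Ighv1-41 with 5, Ighv1-54 and Ighv1-73 with 3 each and Ighv1-63, tied with Ighv8-10, Igkv19-93 and Igkv3-7, with 2, too few to compare groups or to count clones.

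Other plasma cell identity and surface genes gave no calls. Of 21 listed, 13 were tested and none was called by edgeR, DESeq2 or limma-voom. At an unadjusted p under 0.05 there were 1 higher, Tent5c, and 1 lower, Slamf7, both named after their values were seen. Each is 7.69% of the tested genes of the list, beside 5.03% higher and 6.35% lower of all tested genes. The median log2 fold change was 0.11. The 3 most abundant, Cxcr4, Cd9 and Sec11c, are widely expressed genes, with means of 313.3 and 338.1, 173.0 and 190.8, and 92.8 and 101.7 CPM in the WT-labelled and KO-labelled groups. The more specific markers were near the limit of counting. Sdc1, the plasma cell surface marker CD138, had 1, 6 and 4 counts in WT 1, 2 and 3 against 0, 4 and 6 in KO 1, 2 and 3. Tnfrsf17, the survival receptor BCMA, had 0 in each WT-labelled library and 3, 0 and 1 in KO 1, 2 and 3. Derl3, a secretory pathway gene, had counts in WT 2, with 3, and KO 2, with 6, and in no other library.

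The transcription factors Prdm1 and Irf4, which drive plasma cell identity, and their B lineage partner Pou2af1 were not highest in KO 2, the library highest for 2 of the 13 tested genes of the list (15.4%, beside 18.8% of all tested genes). Those 2, Tent5c and Txndc5, were named after their values were seen. Prdm1 had 13, 18 and 15 counts in WT 1, 2 and 3 against 10, 10 and 7 in KO 1, 2 and 3. In CPM it was lower without overlap (log2 fold change -0.61, SE 0.49, edgeR adjusted p = 0.717). Among the 13 tested genes of the list, 2 were lower and 1 higher without overlap, beside 9.32% and 7.48% of all tested genes. Irf4 had 1, 11 and 10 against 3, 4 and 9, and Pou2af1 29, 31 and 35 against 26, 10 and 32. The plasma cell surface receptor Slamf7 had 12, 16 and 13 against 4, 5 and 8 counts (log2 fold change -1.14, edgeR adjusted p = 0.439). With 1 to 35 counts per library, small changes of these genes were not detectable at this depth.

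Genes of the secretory pathway, which carries antibody out of the cell, had medians near 0. Of 34 tested genes of translocation into the endoplasmic reticulum and transport from it, none was called by edgeR, DESeq2 or limma-voom. At an unadjusted p under 0.05 there was 1 higher, Srp14 of the signal recognition particle, named after its value was seen. It is 2.94% of the list, beside 5.03% of all tested genes. The median was 0.03. The most abundant, Sec62, Kdelr1 and Lman2, had log2 fold changes of -0.08, -0.04 and 0.12. Of 30 tested genes of folding, degradation and the unfolded protein response, none was called by any of these tools. Lower values at an unadjusted p under 0.05 were found for 5, the chaperones and folding enzymes Hsp90b1, Canx, Pdia3, Pdia4 and Sdf2l1, also named after their values were seen, with edgeR adjusted p from 0.121 to 0.396. They are 16.7% of the list, beside 6.35% of all tested genes. Hsp90b1 was called lower in edgeR without the filter on low counts, and Pdia3 with total counts only. The list's median was -0.05, and its most abundant genes, Hspa5, Atf4 and Derl1, had 0.07, 0.08 and 0.09.

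Most tested B cell and B cell precursor genes had log2 fold changes below 0. Of 27 listed, 19 were tested and none was called by edgeR or limma-voom, while DESeq2 called 1 lower, Spib. At an unadjusted p under 0.05 there were 0 higher and 6 lower (31.6%, beside 6.35% of all tested genes), and 7 had lower KO-labelled values without overlap, as did 9.32% of all tested genes. The median log2 fold change was -0.46, with 13 of 19 below 0. Cd79b, a signalling chain of the B cell receptor, had 77, 77 and 69 counts in WT 1, 2 and 3 against 40, 34 and 47 in KO 1, 2 and 3 (log2 fold change -0.76, SE 0.22, adjusted p = 0.150). The receptor scaffold Bank1 averaged 23.7 ± 2.05 and 17.1 ± 0.416 CPM (log2 fold change -0.46, adjusted p = 0.176). Cd24a and Cd55, abundant but not specific to B cells, had log2 fold changes of 0.10 and -0.07. Spib and Pou2f2, transcription factors named after their values were seen, had -2.08 and -0.79 with edgeR adjusted p of 0.0899 and 0.0663.

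The lineage markers Cd79a and Ms4a1 had overlapping groups. Cd79a had 33, 48 and 23 counts in WT 1, 2 and 3 against 27, 17 and 26 in KO 1, 2 and 3, and Ms4a1 had 11, 17 and 10 against 0, 14 and 14. Of the precursor genes that pair with the heavy chain, Vpreb1 had 30, 17 and 28 against 38, 38 and 16 counts and Vpreb3 36, 51 and 38 against 2, 19 and 22. KO 2, the library with the most Igkc, was the highest in Ms4a1 and Vpreb1, the 2 of the 19 tested B cell genes for which it was (10.5%, beside 18.8% of all tested genes), and was not in the other genes named here.

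**Figure D3:**
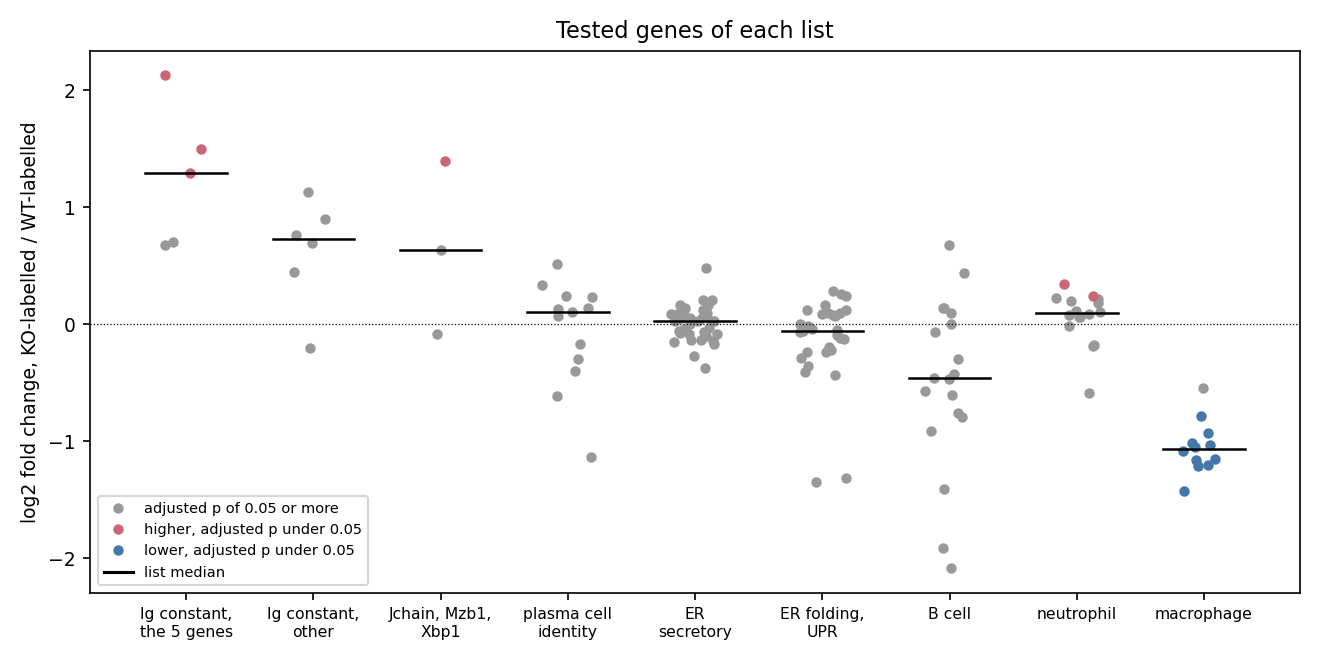
Fitted log2 fold change (KO-labelled over WT-labelled) of each tested gene by list, with the list median as a bar and calls at an adjusted p under 0.05 in colour. The 5 selected immunoglobulin genes have a median of 1.29, the B cell genes -0.46, the secretory genes 0.03 and the macrophage genes -1.06.

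Genes of the niche that keeps plasma cells alive and of cell division were also read. Of 6 tested niche genes none was called by edgeR, DESeq2 or limma-voom or had an unadjusted p under 0.05, and the median was -0.255. Tnfsf13b, the survival factor BAFF, averaged 90.2 ± 8.97 and 83.2 ± 5.94 CPM, the chemokine Cxcl12 9.60 and 11.5 CPM and the CD28 ligand Cd86 10.45 and 9.26 CPM. Il6 and Il5 had 0 counts in every library. Of 15 proliferation genes, read for dividing plasmablasts, none was called by these tools or had an unadjusted p under 0.05. Their median was -0.06, and Tubb5, Stmn1 and Top2a had log2 fold changes of 0.04, -0.15 and -0.23.

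Markers of other cells differed between the same libraries. All 12 macrophage markers were lower without overlap, as were 9.32% of all tested genes. Of them 11 were called lower, beside 0.789% of all tested genes. Their summed levels were 1279 to 1350 CPM in the WT-labelled and 581.1 to 734.8 CPM in the KO-labelled libraries. Erythroid markers overlapped between the groups and were highest in KO 2, at 2799 CPM beside 1299 to 2140 CPM in the WT-labelled libraries and 1681 and 1414 in KO 1 and KO 3, with 0 of 10 called. Platelet markers summed to 378.5 to 417.6 and 316.4 to 350.4 CPM, with 3 of 8 tested genes called lower (Pf4, Ppbp and Itga2b). In 14 alternative settings the call was lost in 4 for Pf4, in 1 for Itga2b and in 0 for Ppbp. Without Gp1bb, the most abundant, the means were 157.1 and 84.2 CPM. Plasmacytoid dendritic cell markers summed to 68.4 to 73.0 and 49.9 to 54.2 CPM, but 1 of 4 was called lower, Irf8, and without it the means were 35.3 and 34.4 CPM. T and NK cell markers overlapped, at 41.4 to 49.9 and 41.8 to 51.9 CPM, most of it Cd3d; without Cd3d the means were 15.6 and 9.495 CPM, and 0 of 3 tested genes were called. The part of these cells in the immunoglobulin difference was not tested.

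**Figure D4:**
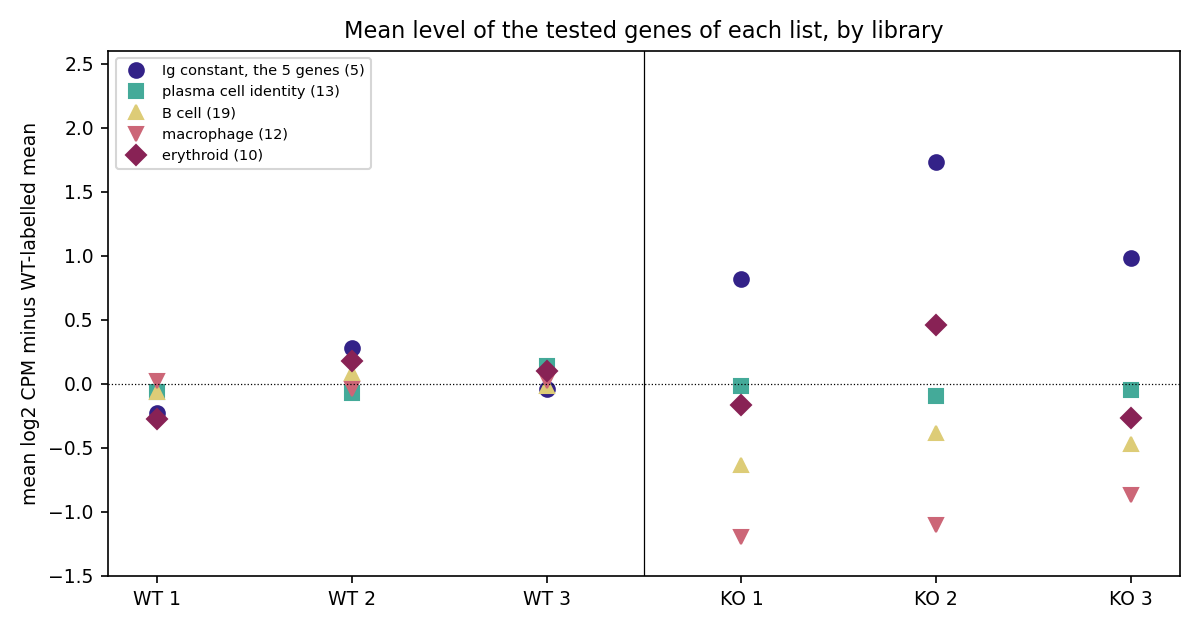
Mean log2 CPM of the tested genes of each list in each library, relative to the WT-labelled mean. The 5 immunoglobulin genes stand at 0.81, 1.73 and 0.98 in KO 1, 2 and 3, the B cell genes at -0.64, -0.39 and -0.47, and the plasma cell identity genes at -0.02, -0.10 and -0.05.

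Across the 6 libraries, Pearson's r of log2 CPM with the sum of the 5 immunoglobulin genes was 0.96 for Jchain, 0.68 for Mzb1 and -0.77 for Xbp1. Within the sum, r was 0.99 or more for Igkc and Igha, which make up most of it, 0.92 for Ighg1, 0.75 for Iglc2 and 0.32 for Iglc1. Taken on deviations from the group means, which leaves out the difference between the groups, r was 0.88 for Jchain, 0.78 for Ighg1 and -0.82 for Xbp1. Iglc1 went from 0.32 to -0.08 and Ighm from -0.30 to 0.47 when taken this way, each with a change of sign. All points share libraries, depth and scaling, and KO 2 lies far from the others, so these values describe 6 points.

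The genes outside the immunoglobulin genes with the most similar pattern were Myd88, Pik3r5, Iqsec1, Rars, Sbno2, Dedd2, Dennd2a and Cyb5r4, with r from 0.977 to 0.983 over the 6 libraries. Their log2 fold changes were 0.15 to 0.30, and none of these 8 was called by edgeR (adjusted p 0.196 to 0.668). An r of 0.8 or more was found for 428 of 7437 genes averaging 5 CPM or more, or 5.76%. None of the 8 stayed among the first 8 when genes were ranked by deviations from the group means or by Spearman's rho. Their own values stayed high, at 0.933 to 0.974 by deviations and 0.886 to 0.943 by rho. With 6 libraries rho takes few values, and ties were ordered by name. The ranking is therefore not stable, although the 8 genes kept high values by both measures.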

How the data were processed

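The table the authors deposited holds raw counts, whole numbers by Ensembl gene ID with no scaling of libraries. Per the submitters' processing notes the tools were RSEM 1.2.3 and DESeq2 and the build mm10, without saying which did what. Aligner, annotation release and strand setting: not given in the sources used here. Reads that match several similar genes can be divided among them by RSEM. Symbols, positions and transcript sequences came from GENCODE vM21 on GRCm38, which mm10 names.

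The quasi-likelihood test of edgeR 4.0.16 (R 4.3.3) was run on the counts with TMM factors, the filterByExpr defaults (minimum count 10, total 15), the group as the one term, all 6 libraries and Benjamini-Hochberg adjustment over 10397 genes. Standard errors are the log2 fold change divided by the square root of F. Levels are TMM-scaled CPM, and log2 CPM used a prior count of 2. No replicate pair agreed within sampling noise (chi-square per degree of freedom 4.12 to 6.79). Intervals of shares are exact 95% binomial and a count of 0 was given a floor of 3. The procedure was tested on simulated data. Alternatives were DESeq2 1.42.0, limma-voom (limma 3.58.1), other scaling and filters, a replicate block, each library left out, a threshold of 0.1 and factors without immunoglobulin genes.

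The 8 genes and all lists were chosen with earlier results of these data known. The text names these 8 genes and Snph, the other immunoglobulin constant genes, the 5 most counted variable genes and the 8 genes most alike in pattern. It names the 3 most abundant genes of the lists on plasma cell, secretory, B cell, niche and proliferation genes. Fixed plasma and B cell markers are named too, not all of which are reported here. Spata24 is named for its overlap with Mzb1, and Gp1bb and Cd3d as the most abundant of their lists. Pf4, Ppbp, Itga2b, Irf8, Il6 and Il5 were named after their values were seen, as were the other genes said to be. Called genes of the macrophage, neutrophil, and eosinophil and basophil lists are not named.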

Additional observations from a re-analysis of the deposited data

How the results depend on the processing

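The log2 fold changes of the 8 genes kept their sign under each alternative that was run. Over all genes, 107 were called, 82 of them lower; total counts only gave 162, 144 of them lower, and moved the median log2 fold change of all genes from 0.01 to -0.10. No filter on low counts gave 287 genes, DESeq2 174, an adjusted p of 0.1 182, and leaving out 1 library 49 to 97. Of the 8 genes, 4 were called higher, against 1 with DESeq2 (Ighg1), 2 with limma-voom (Igkc and Ighg1) and 1 to 4 without 1 library: Ighg1 alone was called without WT 1, WT 2 or WT 3, and Jchain was lost without KO 2. Of the B cell genes, 0 were called lower; total counts only gave 1 (Pou2f2), no filter 3 (Pou2f2, Spib and Vpreb3), DESeq2 1 (Spib), and leaving out 1 library 0 to 1 (Spib, without WT 3). No filter also gave calls of Ighg2b, higher, and Hsp90b1, lower, and total counts only of Pdia3, lower. The SE of Igkc, Igha, Ighg1, Iglc1 and Jchain was smaller without the filter (0.090, 0.091, 0.261, 0.252 and 0.178). That of Iglc2, Mzb1 and Xbp1 was larger (0.427, 0.574 and 0.118). Why the SE moved was not tested. The log2 ratio of summed antibody constant CPM, 1.14, ran from 0.60 without KO 2 to 1.36 without KO 3. Of the 8 genes most alike by Pearson's r, 0 remained among the first 8 by deviations from the group means and 0 by Spearman's rho. Their own values stayed at 0.933 or more and 0.886 or more. Over all tested genes, libraries of the same number did not deviate together (r -0.03, -0.01 and -0.13). This cannot exclude that the numbers pair samples, and the labels state no pairing. With the replicate block 92 genes were called, and 4 of the 8. The SE of Igkc, Igha, Ighg1 and Jchain was then 0.168, 0.202, 0.272 and 0.267, beside 0.274, 0.275, 0.329 and 0.296 without it. That of Iglc2 was 0.441 beside 0.411. The cause of these changes was not tested. At 10 counts or fewer per library, as for Sdc1, Tnfrsf17 and Derl3, depth limits what could be seen.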
